A study of Mus musculus with 9 samples.

Results

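Expression of 8 genes of cholesterol synthesis and lipogenesis was examined in mouse lung: *Hmgcs1*, *Sqle*, *Fdps*, *Insig1*, *Srebf1*, *Srebf2*, *Fasn* and *Scd1*. The genes were chosen by name, and each matched 1 of the 34638 genes measured. Lung RNA from 9 wild-type (WT) C57BL/6 mice was sequenced, 3 in each of 3 groups. Control mice were challenged with PBS. IL-33 mice were challenged with recombinant mouse IL-33, an epithelial alarmin that drives type 2 inflammation, at 0.5 µg by the intratracheal route on each day from day 0 to day 3. IL-33+LM8 mice had the same IL-33 challenges and, before them, intraperitoneal LM8 at 10 mg/kg, an inhibitor of MyD88, the adaptor through which the IL-33 receptor signals. The control and IL-33 mice were females of 6 to 8 weeks whose lungs were taken on day 4. The methods consulted do not describe the sex, age or collection day of the IL-33+LM8 mice, and no group received LM8 without IL-33.

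Cells make cholesterol from acetyl-CoA through the mevalonate pathway, in which HMGCS1 forms HMG-CoA, FDPS makes farnesyl diphosphate and SQLE oxidises squalene. Fatty acids are built from the same precursor by FASN, and SCD1 puts a double bond into them. The transcription factor SREBP2, encoded by *Srebf2*, mainly drives the cholesterol genes, and SREBP1, encoded by *Srebf1*, mainly the fatty acid genes. Both are held in the endoplasmic reticulum with their escort SCAP while sterols are plentiful, and INSIG1 is a protein that retains them there. In the lung, alveolar type 2 cells make fatty acids and cholesterol for surfactant, and macrophages take up and recycle surfactant lipid.

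Levels are given as FPKM, reads per length of transcript and per depth of library, so that they can be compared between genes. Between 53877663 and 90607218 reads per mouse were counted on genes, and the 8 genes had between 2146 reads (*Sqle* in control replicate 1) and 132278 reads (*Scd1* in control replicate 3) in a mouse. Differences are log2 fold changes of TMM-scaled counts with their standard error (SE), from edgeR's quasi-likelihood test. A gene is said to have risen or fallen where its p, adjusted by Benjamini-Hochberg over all genes tested, was under 0.05, and to be called where its absolute log2 fold change was also at least 1. For 1 gene in 3 against 3 mice, the smallest two-sided p of exact permutation is 0.1, and it was reached wherever the groups did not overlap.

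In control lungs *Scd1* stood far above the others, at a mean of 351 FPKM, followed by *Fasn* at 55.6 and *Srebf2* at 28.1 FPKM. *Insig1* and *Srebf1*, at 20.6 and 20.2 FPKM, did not differ beyond their spread. *Hmgcs1* at 15.5, *Fdps* at 9.15 and *Sqle* at 6.04 FPKM closed the order, and their ranges over the mice did not overlap. In IL-33 lungs *Scd1*, *Fasn* and *Srebf2* kept the first places in that order, and the ranges of *Hmgcs1*, *Srebf1* and *Insig1* overlapped. The coefficient of variation within a group was at most 3.11% for *Scd1* and 3.94% for *Srebf2*. It was largest for *Insig1* in each of the 3 groups and reached 17.7% in IL-33+LM8 mice.

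**Figure D1:**
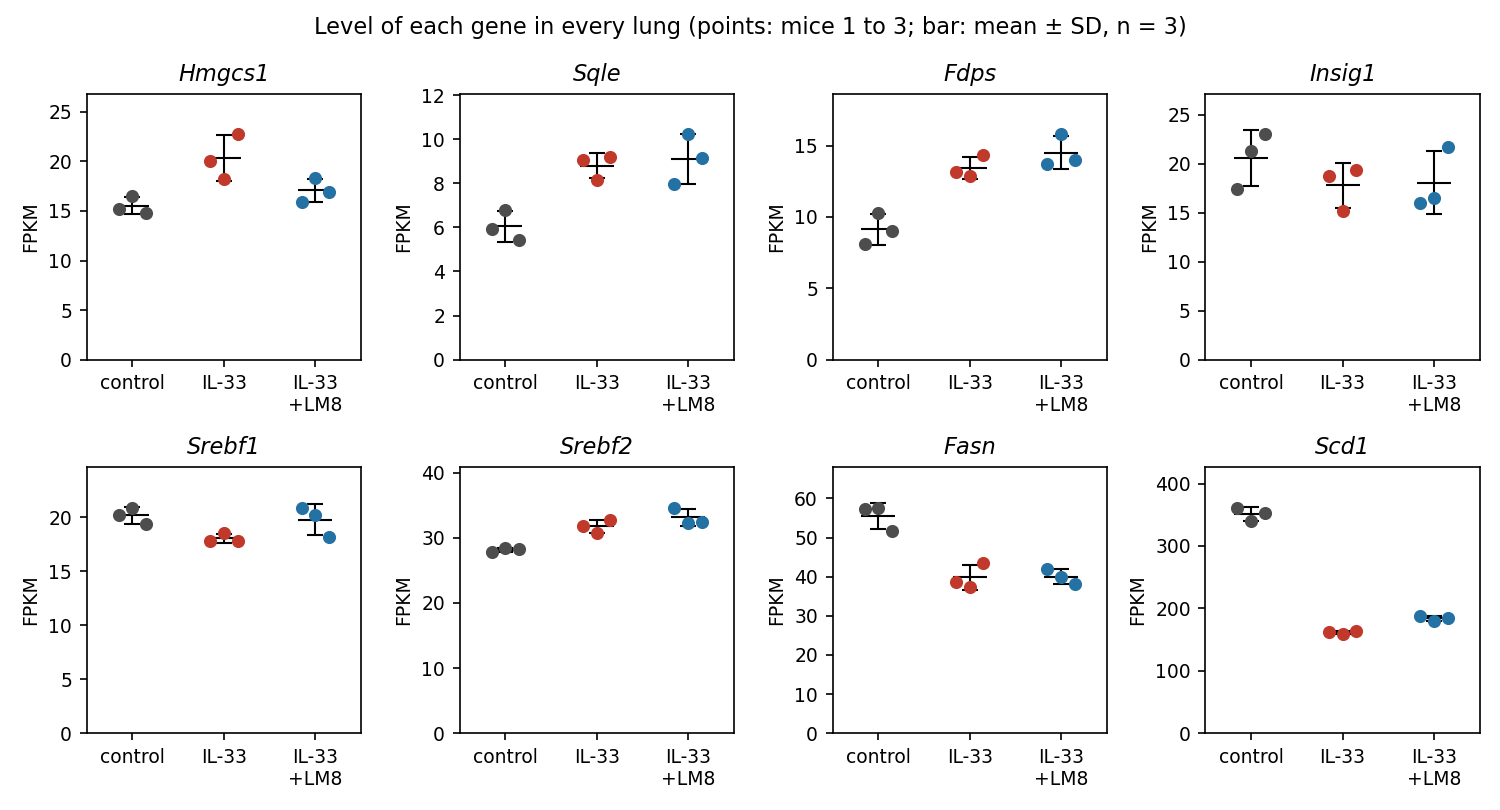
FPKM of the 8 genes in each of the 9 mice, 1 panel per gene with its own linear axis from 0; points are mice, horizontal lines group means and bars the SD (n = 3). IL-33 mice lie above control mice for Hmgcs1, Sqle, Fdps and Srebf2 and below them for Srebf1, Fasn and Scd1, and the groups overlap for Insig1.

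Relative to control mice, the 3 cholesterol synthesis enzymes and *Srebf2* rose with IL-33, *Fasn*, *Scd1* and *Srebf1* fell, and *Insig1* did not pass the test. Thus 4 of the 8 genes rose and 3 fell, where 27.4% of the 16831 genes tested rose and 27.2% fell. Only *Scd1* was also called, among 17.0% of all genes called in either direction. The groups did not overlap for 7 of the 8 genes, and for 63.4% of all genes.

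*Hmgcs1* (ENSMUSG00000093930, chromosome 13) encodes the cytosolic synthase that condenses acetyl-CoA units into HMG-CoA. It was at 15.2, 16.5 and 14.8 FPKM in the control mice, at 20.02, 18.2 and 22.8 FPKM in the IL-33 mice and at 15.9, 18.3 and 17.0 FPKM in the IL-33+LM8 mice. The lowest IL-33 mouse exceeded the highest control mouse, while the IL-33+LM8 mice overlapped both other groups. With IL-33 the gene rose to 1.31 times the control mean (log2 fold change 0.39, SE 0.09, adjusted p = 0.00799).

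*Sqle* (ENSMUSG00000022351, chromosome 15) encodes squalene epoxidase, which starts the sterol-forming part of the pathway. Its level was 5.94, 6.78 and 5.41 FPKM in control mice, 9.07, 8.13 and 9.18 FPKM in IL-33 mice and 7.96, 10.2 and 9.16 FPKM in IL-33+LM8 mice. All 6 mice given IL-33, with or without LM8, were above the control mice, and the IL-33 and IL-33+LM8 mice overlapped. It rose to 1.46 times the control mean with IL-33 (log2 fold change 0.54, SE 0.10, adjusted p = 0.00256).

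*Fdps* (ENSMUSG00000059743, chromosome 3) encodes the synthase of farnesyl diphosphate, from which sterols and the lipid anchors of proteins are made. It measured 8.14, 10.3 and 9.0 FPKM in control mice, 13.1, 12.9 and 14.4 FPKM in IL-33 mice and 13.7, 15.8 and 14.0 FPKM in IL-33+LM8 mice. As for *Sqle*, the control mice stood below all others. The rise with IL-33 was to 1.47 times the control mean (log2 fold change 0.55, SE 0.09, adjusted p = 0.00197). Of the 31-base stretches of the *Fdps* transcripts, 27.9% also occur in other genes, most of them in *Gm43738*, which overlaps it on the same strand. *Gm43738* had 0 reads in 8 of the 9 mice and 246 in an IL-33 mouse, and how reads were split between the 2 genes is uncertain.

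*Srebf2* (ENSMUSG00000022463, chromosome 15) encodes SREBP2. It was measured at 27.8, 28.4 and 28.2 FPKM in control mice, at 31.8, 30.8 and 32.7 FPKM in IL-33 mice and at 34.6, 32.3 and 32.4 FPKM in IL-33+LM8 mice. The control mice were the lowest 3 of the 9, within a narrow range. The rise with IL-33 was small, to 1.13 times the control mean (log2 fold change 0.17, SE 0.04, adjusted p = 0.0139).

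*Srebf1* (ENSMUSG00000020538, chromosome 11) encodes SREBP1. Its values were 20.3, 20.9 and 19.4 FPKM in control mice, 17.9, 18.6 and 17.8 FPKM in IL-33 mice and 20.9, 20.2 and 18.2 FPKM in IL-33+LM8 mice. All IL-33 mice were below all control mice, and the IL-33+LM8 mice overlapped both. The gene fell by 0.16 on the log2 scale with IL-33 (SE 0.05, adjusted p = 0.0249). That call was lost when any of 4 mice was left out, namely control replicate 1 (adjusted p = 0.0564) or 2 (0.0674) and IL-33 replicate 1 (0.103) or 3 (0.0914), with log2 fold changes from -0.15 to -0.13. *Rai1* overlaps *Srebf1* on the opposite strand with 3651 to 6784 reads per mouse, and whether the counting used strand is not given in the sources used here. The ratio of *Srebf2* to *Srebf1* in FPKM was 1.36 to 1.46 in control mice and 1.66 to 1.84 in IL-33 mice, with 1.60 to 1.78 in IL-33+LM8 mice.

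*Insig1* (ENSMUSG00000045294, chromosome 5) was at 17.5, 21.3 and 23.0 FPKM in control mice, at 18.8, 15.2 and 19.4 FPKM in IL-33 mice and at 15.98, 16.5 and 21.8 FPKM in IL-33+LM8 mice. The 3 groups overlapped throughout. Its log2 fold change with IL-33 was -0.21 (95% confidence interval -0.50 to 0.08, adjusted p = 0.185), an interval that allows a fall of up to 0.50 and a rise of up to 0.08.

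*Fasn* (ENSMUSG00000025153, chromosome 11) encodes fatty acid synthase, which makes palmitate. It stood at 57.3, 57.7 and 51.7 FPKM in control mice, at 38.7, 37.5 and 43.5 FPKM in IL-33 mice and at 42.0, 39.8 and 38.1 FPKM in IL-33+LM8 mice. Control mice were the highest 3 of the 9, and the other groups overlapped. With IL-33 it fell to 0.718 of the control mean (log2 fold change -0.48, SE 0.08, adjusted p = 0.00175).

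*Scd1* (ENSMUSG00000037071, chromosome 19) encodes the stearoyl-CoA desaturase that makes monounsaturated fatty acids. It measured 361, 340 and 352 FPKM in control mice, 162, 158 and 163 FPKM in IL-33 mice and 187, 180 and 185 FPKM in IL-33+LM8 mice. None of the 3 groups overlapped another. With IL-33 it fell to 0.459 of the control mean (log2 fold change -1.13, SE 0.06, adjusted p = 5.93e-06), the largest change among the 8 genes in either direction. *Scd1* shares 8.14% of its 31-base stretches with other genes, chiefly *Scd3*, which had at most 174 reads in any mouse. Among the 19 genes listed for fatty acid and glycerolipid synthesis, *Scd1* gave 39.9% to 43.2% of the summed FPKM in control mice. In IL-33 mice it gave 28.4% to 29.1%.

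**Figure D2:**
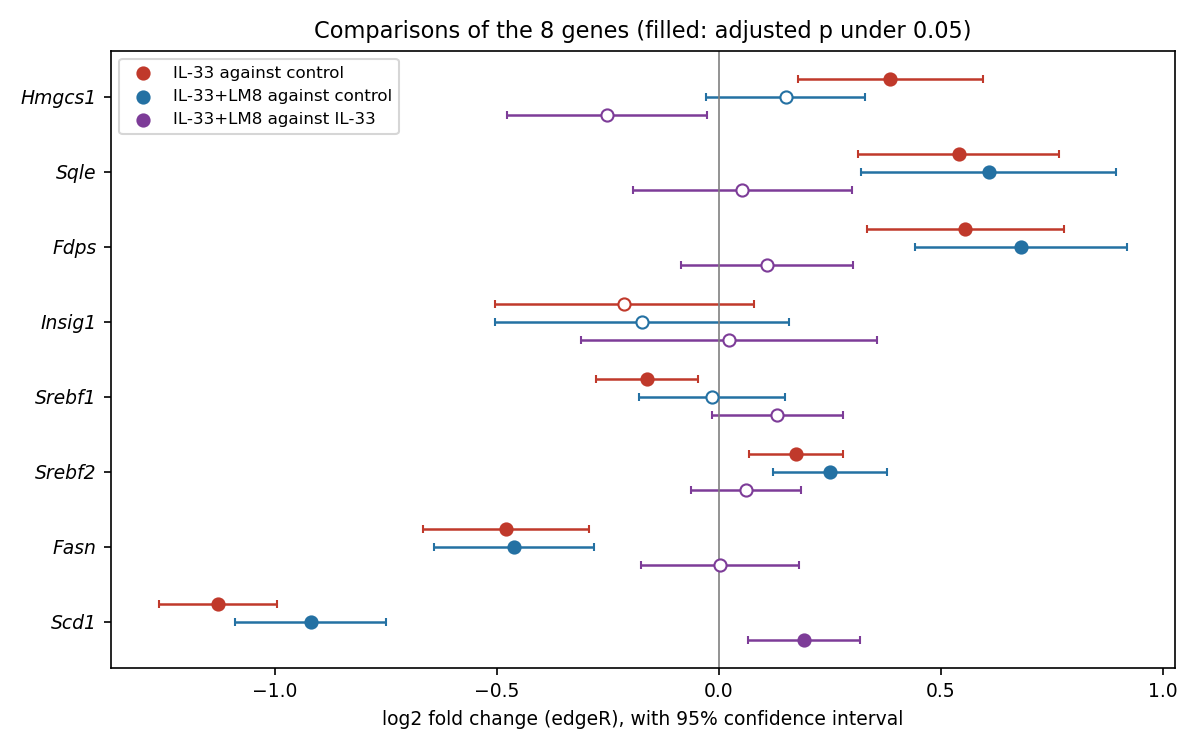
Log2 fold changes of the 8 genes in the 3 comparisons, with 95% confidence intervals from edgeR's quasi-likelihood fit; filled points have an adjusted p under 0.05. With IL-33 the enzymes of cholesterol synthesis lie right of 0 and Fasn and Scd1 left of it, and between IL-33+LM8 and IL-33 mice only the point of Scd1 is filled.

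Promoters bear on genes that move together, so the 250 bases before the annotated start are shown for 4 of the genes: *Hmgcs1* and *Srebf2*, which rose with IL-33, *Fasn*, which fell, and *Insig1*, which did not pass the test. The sequences are from RefSeq on build GRCm38.p6, read 5′ to 3′ on the strand of the gene. They lie at chr13:119690101-119690350 (plus strand) for *Hmgcs1*, chr15:82147019-82147268 (plus strand) for *Srebf2*, chr5:28071162-28071411 (plus strand) for *Insig1* and chr11:120824548-120824797 (minus strand) for *Fasn*. Capitals mark CCAAT boxes, which read ATTGG where they lie on the other strand, and the sterol regulatory element, which SREBPs bind, in its full form TCACNCCAC or its shorter form TCACNCCA. RefSeq promoters were found for 5 of the 8 genes, the fifth being *Srebf1* with 3 start sites, and not for *Sqle*, *Fdps* and *Scd1*.
Hmgcs1: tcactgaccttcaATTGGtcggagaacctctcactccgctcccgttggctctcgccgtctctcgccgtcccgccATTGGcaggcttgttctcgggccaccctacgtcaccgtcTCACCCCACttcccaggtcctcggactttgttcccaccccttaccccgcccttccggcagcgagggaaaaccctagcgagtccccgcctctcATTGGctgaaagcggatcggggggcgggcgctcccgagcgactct
Srebf2: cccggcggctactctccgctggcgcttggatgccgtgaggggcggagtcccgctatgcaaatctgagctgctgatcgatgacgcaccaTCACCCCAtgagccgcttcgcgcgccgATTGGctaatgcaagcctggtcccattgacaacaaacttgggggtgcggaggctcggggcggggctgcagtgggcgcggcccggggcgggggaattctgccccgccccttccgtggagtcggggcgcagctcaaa
Insig1: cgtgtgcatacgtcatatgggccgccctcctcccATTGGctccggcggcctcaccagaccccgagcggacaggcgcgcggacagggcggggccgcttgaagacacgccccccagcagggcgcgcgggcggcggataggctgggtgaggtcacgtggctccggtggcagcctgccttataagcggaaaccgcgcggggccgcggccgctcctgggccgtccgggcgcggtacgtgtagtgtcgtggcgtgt
Fasn: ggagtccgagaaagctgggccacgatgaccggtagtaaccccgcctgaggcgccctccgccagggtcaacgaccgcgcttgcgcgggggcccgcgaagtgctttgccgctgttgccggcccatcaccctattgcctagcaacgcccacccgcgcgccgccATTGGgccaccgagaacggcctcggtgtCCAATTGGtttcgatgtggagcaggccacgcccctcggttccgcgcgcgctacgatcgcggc
The full sterol regulatory element occurred on either strand in 1.05% of 32851 mouse promoters of this length and, among the 5 genes, in *Hmgcs1* alone, from position -137. The shorter form, which was added after the matches were seen, occurred in 3.67% of promoters and also in that of *Srebf2*, from position -162. CCAAT was present in 33.8% of all promoters and in all 5 of these genes, with 3 matches each in *Hmgcs1* and *Fasn*. The GC box GGGCGG, which is not in capitals, was present in 32.7% of all promoters and in *Hmgcs1*, *Insig1*, *Srebf1* and *Srebf2*, with no match in that of *Fasn*. Promoters were found for 15 of the 18 other cholesterol synthesis genes. Of those, none held the full element, 1 held the shorter form, 14 held CCAAT and 13 the GC box. Promoters were also found for 13 of the 17 other genes of fatty acid and glycerolipid synthesis. Of these none held the full element, 1 held the shorter form, 7 held CCAAT and 7 the GC box. These counts are of genes with a match in any of their promoters, while the percentages over all promoters are per promoter. These matches describe letters in a window and say nothing of binding in these lungs.

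The other enzymes of cholesterol synthesis were mostly higher with IL-33 too. Of 18 genes, 10 rose, 2 fell and 6 did not pass the test, beside the 27.4% and 27.2% of all genes, and their median log2 fold change was 0.33, beside -0.01 over all genes tested. *Mvd*, the decarboxylase that ends the mevalonate steps, was called, going from 7.22 ± 0.94 to 18.2 ± 1.31 FPKM (SD, n = 3; log2 fold change 1.33, SE 0.12, adjusted p = 8.44e-05 by edgeR). *Cyp51*, the demethylase of lanosterol, was called as well, from 7.08 ± 1.01 to 15.1 ± 0.99 FPKM (SD, n = 3; log2 fold change 1.09, adjusted p = 0.000123 by edgeR). Both changes were larger than those of *Hmgcs1*, *Sqle* and *Fdps*. The 2 that fell, *Pmvk* (log2 fold change -0.51) and *Ggps1* (-0.48), are named after their values were seen; the first makes mevalonate diphosphate and the second draws farnesyl diphosphate away from sterols. Summed over all 21 enzymes, the level was 183.8 to 206.2 FPKM in control mice and 228.4 to 256.5 FPKM in IL-33 mice.

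The other fatty acid synthesis genes, listed together with genes of glycerolipid synthesis such as *Dgat1*, were mostly lower with IL-33. Of 17 genes, 9 fell, 2 rose and 6 did not pass the test, beside the 27.2% of all genes that fell and the 27.4% that rose. Their median log2 fold change was -0.25, beside -0.01 over all genes tested. *Acaca*, the acetyl-CoA carboxylase that feeds FASN, fell from 5.64 ± 0.16 to 4.26 ± 0.01 FPKM (SD, n = 3; log2 fold change -0.41, adjusted p = 0.000262 by edgeR). *Acly*, which supplies cytosolic acetyl-CoA to both pathways, fell by 0.18 on the log2 scale (adjusted p = 0.0202). The 2 that rose, named after their values were seen, were *Me1*, the malic enzyme that supplies NADPH (log2 fold change 0.96), and *Dgat1*, which completes triglycerides (0.65). *Elovl6*, the elongase of palmitate, had a log2 fold change of 0.19 (SE 0.57, adjusted p = 0.799) and *Thrsp*, a lipogenic protein, of -1.56 (SE 0.58, adjusted p = 0.0544). In both of these the control mice were far apart: replicates 1, 2 and 3 had 0.418, 2.98 and 1.95 FPKM of *Elovl6* and 2.51, 11.3 and 5.35 FPKM of *Thrsp*. Summed over all 19 genes, the level was 836 to 851.8 FPKM in control mice and 543.7 to 573.6 FPKM in IL-33 mice, and without *Scd1* 476.2 to 512.1 FPKM against 385.3 to 410.5 FPKM.

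**Figure D3:**
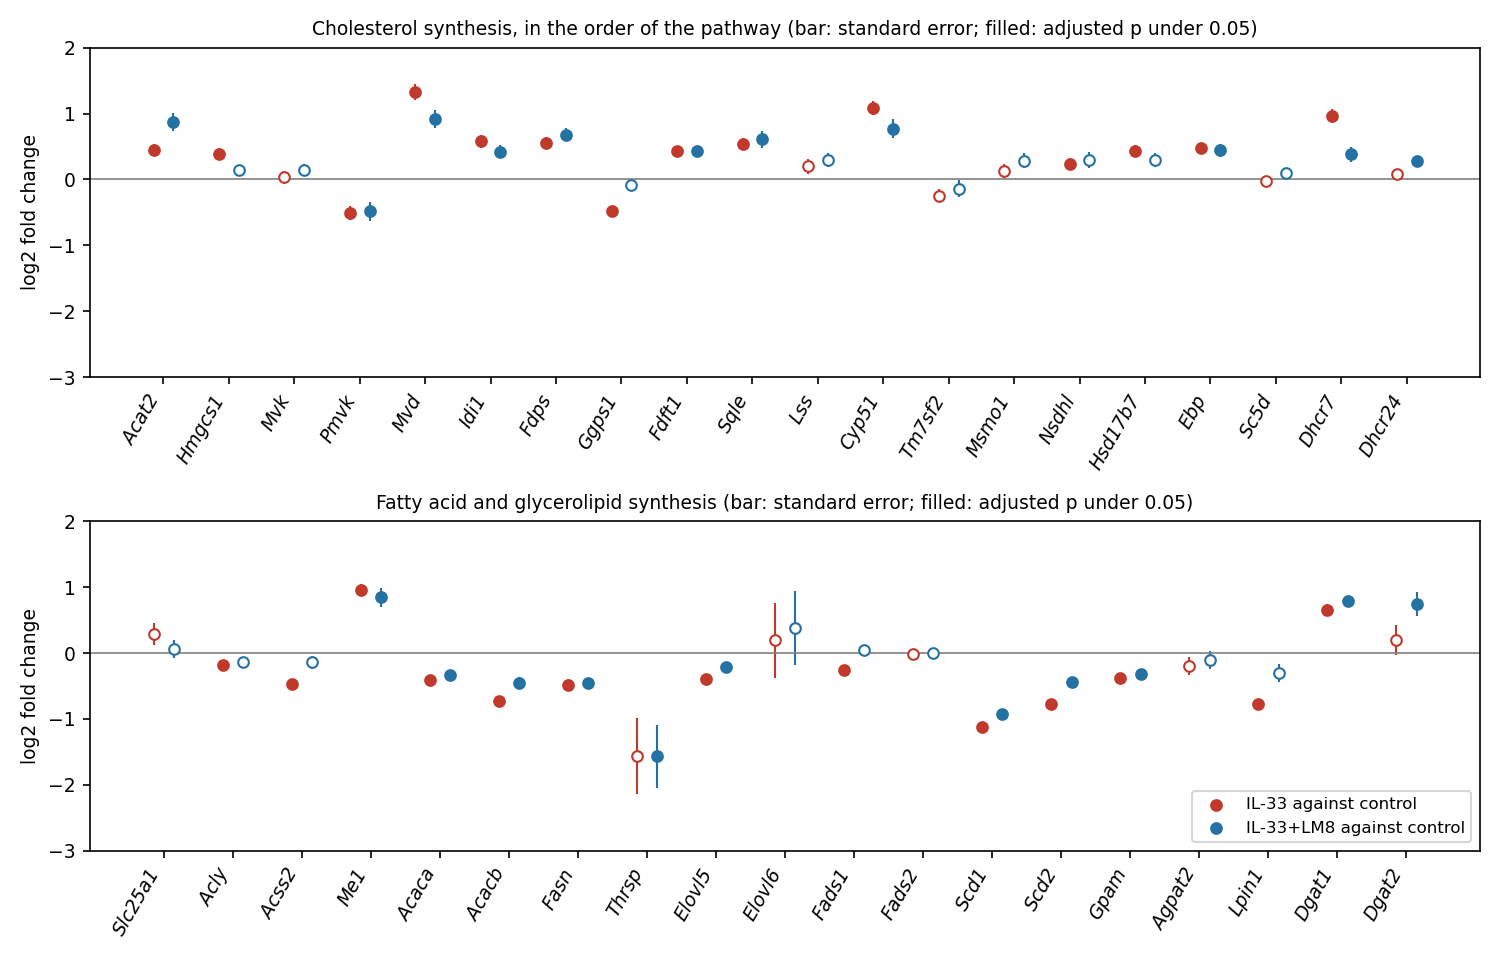
Log2 fold changes with IL-33 against control, and with IL-33+LM8 against control, which share the control mice. Genes of cholesterol synthesis and of fatty acid and glycerolipid synthesis are shown, each list in about the order of its steps. Hmgcs1, Sqle, Fdps, Fasn and Scd1 are among them. Bars are standard errors and filled points have an adjusted p under 0.05. Mvd, Cyp51 and Dhcr7 stand highest among the cholesterol enzymes with IL-33, and Scd1 and Thrsp lowest among the fatty acid genes.

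Of the 5 other genes that hold, escort or cleave SREBPs, 0 rose, 3 fell with IL-33 and 2 did not pass the test, beside the 27.4% of all genes that rose and the 27.2% that fell. *Scap*, the sterol-sensing escort, was at 11.5 ± 0.23 FPKM in control and 11.6 ± 0.36 FPKM in IL-33 mice (SD, n = 3; log2 fold change 0.01, adjusted p = 0.883 by edgeR). *Insig2*, the paralogue of *Insig1*, fell from 12.9 ± 0.68 to 9.86 ± 0.32 FPKM (SD, n = 3; log2 fold change -0.39, adjusted p = 0.00212 by edgeR). Of 6 genes of cholesterol uptake and transport that were tested, 3 rose and 3 did not pass the test, against the same 27.4% and 27.2%.

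Of 9 genes of LXR signalling, cholesterol efflux and esterification, 4 rose, 4 fell and 1 did not pass the test with IL-33, where 27.4% of all genes rose and 27.2% fell. LXRs are the oxysterol receptors that act on *Srebf1* and *Abca1* among other targets. *Ch25h*, which makes 25-hydroxycholesterol, a sterol known to block SREBP processing, rose from 3.57 ± 0.10 to 29.6 ± 1.90 FPKM (SD, n = 3; log2 fold change 3.05, adjusted p = 1e-06 by edgeR). *Abca1*, the cholesterol exporter, was not past the test (log2 fold change -0.14, adjusted p = 0.157). Of 6 genes of fatty acid uptake and storage, 4 were called higher and 1 fell, where 17.0% of all genes were called in either direction. Those called were *Fabp4* (log2 fold change 1.12) and *Fabp5* (1.31), which carry fatty acids, *Plin2* (1.10), which coats lipid droplets, and *Pparg* (1.09), the lipid-sensing receptor. The control mice were far apart in *Fabp4*, at 2.62, 8.61 and 5.38 FPKM in replicates 1, 2 and 3 (SE 0.37, adjusted p = 0.0358 by edgeR).

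Whole lung RNA cannot tell fewer cells of a type from less RNA per cell, and the marker genes of several cell types moved in these mice. The marker counts below stand beside the 27.4% of all genes that rose with IL-33 and the 27.2% that fell. Alveolar type 2 markers summed to 13610 to 14740 FPKM in control mice and 7645 to 7888 FPKM in IL-33 mice, with 3 of 8 lower and 1 higher. *Sftpc*, their defining surfactant gene and the largest part of that sum, went from 11030 to 4993 FPKM (log2 fold change -1.15). The median log2 fold change of the 8 markers was -0.15. *Sftpd*, named after its values were seen, was the marker that was higher (log2 fold change 0.73). Alveolar macrophage markers summed to 113.9 to 133.4 FPKM in control mice and 76.8 to 92.6 FPKM in IL-33 mice. Of these, 4 of 6 were lower and 1 higher, and *Marco* went from 7.41 to 2.40 FPKM. *Car4*, the largest part of that sum, went from 80.87 to 54.55 FPKM. *Siglecf* was the marker that was higher, going from 3.41 to 7.95 FPKM (log2 fold change 1.22). *Car4* and *Siglecf* are named after their values were seen. Neither is expressed by alveolar macrophages alone in whole lung, so their values cannot be assigned to that cell type. Markers of proliferating cells summed to 7.11 to 11.5 FPKM in control mice and 69.2 to 81.9 FPKM in IL-33 mice, with 5 of 5 higher. Club cell markers summed to 23740 to 26050 FPKM in control mice and 8924 to 10020 FPKM in IL-33 mice, with 4 of 4 lower. Alveolar type 1 markers summed to 1215 to 1326 FPKM and 611.8 to 634.9 FPKM, with 5 of 5 lower. Endothelial markers were at 560.7 to 633.4 and 369.6 to 404.2 FPKM, with 3 of 4 lower. Interstitial macrophage markers went from a range of 67.1 to 79.2 FPKM to one of 446.6 to 478.7 FPKM, with 4 of 5 higher and 1 lower. Eosinophil markers went from at most 0.957 to at least 32.3 FPKM, and *Epx* was listed at 0 in every control mouse. The part of these shifts in the changes of the 8 genes was not tested.

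Adipocytes also express *Scd1* and *Fasn* strongly, so their markers were set beside both genes. The summed adipocyte markers were 30.4, 106.8 and 61.3 FPKM in control replicates 1, 2 and 3 and 26.8, 19.1 and 40.5 FPKM in the IL-33 replicates, so the groups overlapped. Of the 8 markers 6 were tested, of which 3 fell and 0 rose, beside the 27.2% and 27.4% of all genes. Those that fell, named after their values were seen, were *Cidec* (log2 fold change -1.72), *Adrb3* (-1.71) and *Retn* (-2.50, SE 0.71). *Cfd* (-1.16, adjusted p = 0.106 by edgeR) and *Pck1* (-0.08, adjusted p = 0.927), named likewise, did not pass the test. *Adrb3* was at 3.94, 3.87 and 4.74 FPKM in control replicates 1, 2 and 3, not in the order of the sum. *Adipoq* was at 5.27 ± 3.76 FPKM in control and 2.44 ± 0.85 FPKM in IL-33 mice (SD, n = 3; adjusted p = 0.147 by edgeR), *Plin1* was under 1 FPKM on average in every group, and *Lep* was listed at 0 in every IL-33 mouse. Control replicates 1, 2 and 3 had 361.4, 339.7 and 352.3 FPKM of *Scd1* and 57.3, 57.67 and 51.75 FPKM of *Fasn*. The order of the control mice by the adipocyte sum was also their order in *Thrsp*, *Elovl6* and *Fabp4*. The part of adipocyte RNA in these values was not tested.

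**Figure D4:**
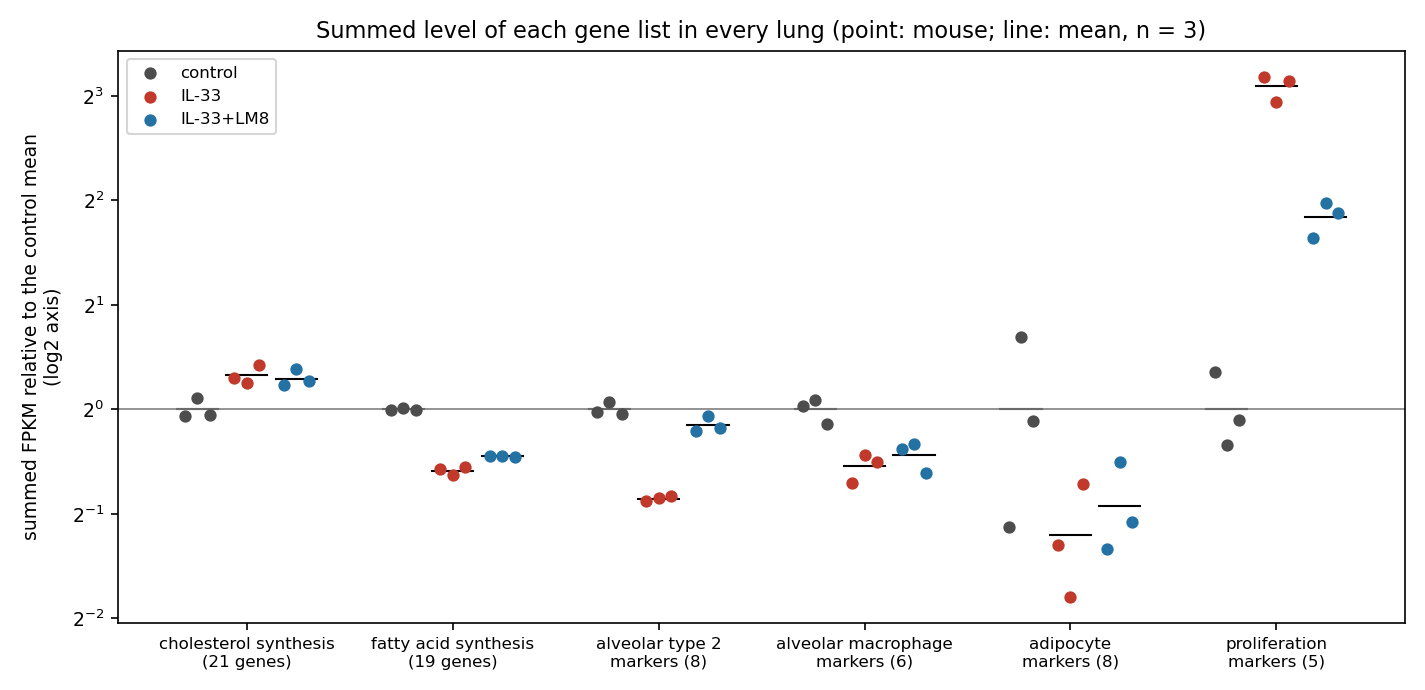
Summed FPKM in each of the 9 mice of the cholesterol synthesis and fatty acid synthesis genes and of 4 marker lists, as a ratio to the mean of the control mice on a log2 axis; points are mice, lines group means, and the grey line is the control mean. Fatty acid synthesis and the alveolar type 2 sum, most of which is Sftpc, lie below control in all 3 IL-33 mice. With LM8 that type 2 sum lies nearer to control than fatty acid synthesis does. Fatty acid synthesis here includes genes of glycerolipid synthesis.

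Adding LM8 to IL-33 addressed whether blocking MyD88 alters the response. Against IL-33 mice, 1 of the 8 genes rose and 0 fell, where 12.6% of 16831 genes rose and 13.9% fell, and 0 of the 8 were called, where 5.39% of all genes were. *Scd1* was the gene that rose, to 1.14 times the IL-33 mean (log2 fold change 0.19, SE 0.05, adjusted p = 0.036). The groups did not overlap for *Scd1*, 1 of the 8, and for 43.2% of all genes. The call on *Scd1* was lost without IL-33 replicate 1 (adjusted p = 0.108), 2 (0.138) or 3 (0.0893) or IL-33+LM8 replicate 3 (0.1), while its log2 fold change stayed between 0.18 and 0.21 over those.

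For the other genes the confidence intervals bound how far LM8 could have moved them. *Hmgcs1* was lower in IL-33+LM8 mice by value, with a log2 fold change of -0.25 (95% confidence interval -0.48 to -0.03, adjusted p = 0.0966). *Sqle* had a log2 fold change of 0.05 (-0.19 to 0.30) and *Fdps* of 0.11 (-0.09 to 0.30). *Srebf1* had 0.13 (-0.02 to 0.28), *Srebf2* 0.06 (-0.06 to 0.18) and *Insig1* 0.02 (-0.31 to 0.36). *Fasn* was at 39.9 ± 3.19 FPKM in IL-33 and 40.0 ± 1.91 FPKM in IL-33+LM8 mice (SD, n = 3; interval -0.18 to 0.18, adjusted p = 0.989 by edgeR), so that a change of more than 0.18 in either direction lies outside the interval. None of these intervals reaches a log2 fold change of 1.

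Against control mice, which also served for the comparison of IL-33 with control, 3 of the 8 genes rose and 2 fell in IL-33+LM8 mice, where 16.3% of 16829 genes rose and 13.4% fell. No gene of the 8 was called, where 7.33% of all genes were, and the groups did not overlap for 5 of the 8, where they did not for 47.3% of all genes. *Sqle* rose by a log2 fold change of 0.61 (SE 0.12, adjusted p = 0.01), *Fdps* by 0.68 (SE 0.10, adjusted p = 0.00299) and *Srebf2* by 0.25 (SE 0.06, adjusted p = 0.014). Without control replicate 3 the adjusted p of *Srebf2* was 0.0504. *Fasn* was at 0.719 of the control mean (log2 fold change -0.46, SE 0.08, adjusted p = 0.00473) and *Scd1* at 0.524 (log2 fold change -0.92, SE 0.07, adjusted p = 0.000212). *Hmgcs1*, by contrast, overlapped control (log2 fold change 0.15, 95% confidence interval -0.03 to 0.33, adjusted p = 0.179). The intervals of *Srebf1* (-0.18 to 0.15) and *Insig1* (-0.50 to 0.16) held 0 too. The ratio of *Hmgcs1* to *Fasn* in FPKM was 0.266 to 0.287 in control mice, 0.487 to 0.523 in IL-33 mice and 0.379 to 0.460 in IL-33+LM8 mice. The ranges of the 3 groups did not overlap. Because *Hmgcs1* rose and *Fasn* fell with IL-33, the gap between control and IL-33 mice in this ratio adds no further result.

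Few of the other cholesterol enzymes passed the test between IL-33+LM8 and IL-33 mice. Of 18, 2 rose, 3 fell and 13 did not pass, shares near those of all genes (12.6% and 13.9%), with a median log2 fold change of 0.02. *Mvd* fell to 13.6 ± 1.52 FPKM (SD, n = 3; log2 fold change -0.43, adjusted p = 0.0229 by edgeR) and was still above control (log2 fold change 0.92, adjusted p = 0.00295). *Cyp51* was not past the test (log2 fold change -0.34, adjusted p = 0.0783). *Dhcr7*, the last reductase of the pathway, fell (log2 fold change -0.59), and *Acat2*, which joins the first acetyl units (0.41), and *Ggps1* (0.37) rose; these 3 are named after their values were seen. Leaving out 1 mouse brought the 3 that fell to 1 without IL-33 replicate 3 or IL-33+LM8 replicate 1 or 3, and the 2 that rose to 1 without IL-33 replicate 1 or 2 or IL-33+LM8 replicate 2 or 3. Summed over the 21 enzymes, IL-33+LM8 mice were at 224.8 to 249.8 FPKM, which overlapped the IL-33 mice.

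Among the 17 other genes of fatty acid and glycerolipid synthesis, 5 rose and 0 fell with LM8 against IL-33. Of all genes, 12.6% rose and 13.9% fell. The median log2 fold change of the 17 was 0.12. The count was 2 without IL-33 replicate 1 or 2 or IL-33+LM8 replicate 3, and 3 without IL-33 replicate 3 or IL-33+LM8 replicate 1. *Scd2*, the paralogue of *Scd1* and named after its values were seen, was at 142 ± 3.02, 83.7 ± 3.65 and 104 ± 5.09 FPKM in control, IL-33 and IL-33+LM8 mice (SD, n = 3), and its log2 fold change with LM8 was 0.31 (adjusted p = 0.00842 by edgeR) beside 0.19 for *Scd1*. *Acaca* and *Acly* had log2 fold changes of 0.06 and 0.02 and did not pass the test. *Thrsp* was called lower in IL-33+LM8 than in control mice (log2 fold change -1.57, SE 0.48, adjusted p = 0.0445), with the spread among control mice given above. Summed over the 19 genes, IL-33+LM8 mice were at 615.5 to 618.8 FPKM, above all IL-33 and below all control mice.

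Of the 6 genes of fatty acid uptake and storage, 4 fell and 1 rose with LM8 against IL-33, where 13.9% of all genes fell and 12.6% rose, and the 4 moved by more than any of the 8 genes. *Fabp4* (log2 fold change -1.51) and *Fabp5* (-1.16) were called lower than in IL-33 mice, and *Plin2* (-0.82) and *Pparg* (-0.49) fell. *Insig2* rose by 0.29 (adjusted p = 0.0131), and *Scap* had a log2 fold change of 0.02. *Abca1* fell by 0.33 on the log2 scale (adjusted p = 0.0388), while *Ch25h*, at 34.7 ± 10.2 FPKM (SD, n = 3), did not pass the test (log2 fold change 0.23).

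The cell type markers moved beside these results as well. Of all genes, 12.6% rose and 13.9% fell against IL-33 mice, and 16.3% rose and 13.4% fell against control mice. The alveolar type 2 sum was 12160 to 13420 FPKM in IL-33+LM8 mice, with 4 of 8 markers higher than in IL-33 mice and 0 lower, and *Sftpc*, at 9203 FPKM, was most of that sum. Against control mice, 2 of the 8 markers were higher, 2 lower and 4 not past the test, with log2 fold changes from -0.58 to 0.68. *Sftpc* was among those not past it (log2 fold change -0.25, adjusted p = 0.131), and *Abca3* (-0.58, adjusted p = 0.00542) and *Sftpb* (-0.33, adjusted p = 0.0324), named after their values were seen, were the lower ones. *Sftpa1* and *Sftpd*, named likewise, lay above all control mice in all IL-33+LM8 mice. *Sftpa1* was at 1314 to 1649 FPKM against 874.4 to 989.2 FPKM in control mice. *Sftpd* was at 380.8 to 465.2 FPKM against 252.4 to 290.2 FPKM. The sum of proliferation markers was 28.04 to 35.5 FPKM, with 5 of 5 lower than in IL-33 mice and *Mki67* at 11.9 against 30.7 FPKM. Neutrophil markers summed to 25.3 to 32.3 FPKM in control, 181 to 205.1 FPKM in IL-33 and 838.3 to 975.6 FPKM in IL-33+LM8 mice, with 6 of 6 higher in each step, and *S100a9* was at 14.98, 47.9 and 509 FPKM. Their part in the values of the 8 genes was not tested.

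The genes whose levels most resembled those of *Hmgcs1* and *Fasn* over the 9 mice were found among 8573 genes with a mean of at least 5 FPKM, by Pearson's r of log2(FPKM + 1). The 9 points fall into 3 groups, so r is given as a description without a p, and beside it r of the deviations from the group means. For *Hmgcs1* they were *Nono* (r = 0.980), *Ifi27l2a* (0.976), *Sae1* (0.972), *Bloc1s6* (0.965) and *Anxa6* (0.958), none of them in the lists of sterol synthesis, with r within groups from 0.917 (*Sae1*) to 0.972 (*Ifi27l2a*). *Ifi27l2a*, an interferon-inducible gene, went from 31.6 to 77.8 and back to 39.0 FPKM from control to IL-33 to IL-33+LM8 mice, a pattern of the same order as *Hmgcs1* but wider. For *Fasn* they were *Acly* (r = 0.985), *Niban2* (0.984), *Mfhas1* (0.973), *Kcne2* (0.970) and *Shroom4* (0.969), with r within groups from 0.676 (*Kcne2*) to 0.934 (*Acly*). *Acly*, which supplies the acetyl-CoA of the same pathway, was at 54.1, 47.8 and 48.6 FPKM in control, IL-33 and IL-33+LM8 mice.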

How the data were processed

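The authors deposited 1 table holding, for each mouse, whole-number read counts per gene, which are not normalised, and FPKM per gene. RNA had been extracted with TRIzol and sequenced in paired ends. The submitters' processing notes name HISAT2 2.0, StringTie 1.3.0, Bowtie 0.12.2 and the build mm10, without their roles. Of 32643 genes shared with the GENCODE M21 annotation of GRCm38, 620 had the same start and end in the table, so the build of its coordinates is unknown, and only chromosomes are given for genes; promoter coordinates are those of RefSeq on GRCm38.p6. Replicates are separate mice by the labels, and no 2 libraries of a group agreed within sampling noise.

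Groups were taken from the treatment labels. The 8 genes and all lists were chosen with earlier results of these data known, so no list was tested. The main test was the quasi-likelihood F test of edgeR 4.0.16 in R 4.3.3, with TMM scaling of the deposited counts. Each comparison was fitted on its 6 mice. A gene was tested if its FPKM averaged 0.5 or more over the 9 mice and it had a count above 0 in the 6, and all 8 genes were. Single genes were also tested by exact two-sided permutation of log2(FPKM + 1). The fits were tested on simulated data. Alternatives were other scalings, DESeq2 1.42.0, limma 3.58.1 on log2(FPKM + 1) or log2(FPKM + 0.1), other filters and thresholds, the 9 mice fitted together, the replicate number as a block, and the omission of each mouse in turn. Control and IL-33+LM8 mice of the same number deviated together from their group means (r = 0.307, 0.322 and 0.672). No label says what the numbers share, and the block changed no call among the 8 genes there. Mice of different number did so too, such as control replicate 3 with IL-33 replicate 1 (r = 0.647). IL-33 replicate 1 with IL-33+LM8 replicate 3 had r = 0.669. The block by number does not model such pairs. These mice had the most reads of their groups, and what they share was not tested.

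Genes named were the 8, genes of the lists past both thresholds, *Scap*, *Insig2*, *Acly*, *Acaca*, *Elovl6* and *Abca1* whatever their values, 7 marker genes, and the 5 genes most like *Hmgcs1* and *Fasn*. Others were chosen after their values were seen: *Pmvk*, *Ggps1*, *Me1*, *Dgat1*, *Dhcr7*, *Acat2*, *Scd2*, the markers *Lep*, *Cidec*, *Adrb3*, *Retn*, *Cfd*, *Pck1*, *Abca3*, *Sftpb*, *Sftpa1*, *Sftpd*, *Car4* and *Siglecf*, and overlapping genes. Some genes counted in the lists are not reported singly here. Shared 31-base stretches were counted in GENCODE M21 transcripts, and motifs in RefSeq promoters. No molecular identifiers are described, so counts are of reads, not molecules.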

Additional observations from a re-analysis of the deposited data

How the results depend on the processing

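The number of the 8 genes past the adjusted p threshold was 7 with IL-33 against control, 1 with IL-33+LM8 against IL-33 and 5 with IL-33+LM8 against control. A minimum absolute log2 fold change of 1 brought these counts to 1, 0 and 0, and an adjusted p under 0.01 brought them to 5, 0 and 3. With a replicate block the counts were 6 (*Srebf2* lost, adjusted p = 0.0528), 0 (*Scd1* lost, adjusted p = 0.147) and 5. In the first and second comparisons, same-numbered mice had r of 0.28 and 0.222 for replicate 2. For replicates 1 and 3, r was negative (-0.419 and -0.282 in the first, -0.38 and -0.397 in the second). Some mice of different number deviated together there (r up to 0.647 and 0.669). With 1 mouse left out the counts were 6 to 7, 0 to 1 and 4 to 5. Against IL-33, the log2 fold change of IL-33+LM8 then ranged from -0.0449 to 0.1451 for *Sqle*, from -0.1202 to 0.1087 for *Insig1* and from -0.0405 to 0.081 for *Fasn*, so these had no fixed direction. Against control, that of *Srebf1* ranged from -0.0532 to 0.0441 and was 0.0022 when every gene with a count was tested. Among the values of the 8 genes under alternatives, 363 had the same direction and call, 11 kept the direction and lost the call and 10 changed sign. Other scalings moved the median of all genes by at most 0.033. The cause of the lost calls was not tested. The 3 mice per group limit the precision, since each of the 8 genes had at least 2146 reads in every mouse.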
